A study of Mus musculus with 10 samples.

Results

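Glycerol handling and triglyceride synthesis were described through 10 genes in interscapular brown adipose tissue (iBAT): Gk, Aqp7, Gpd1, Gpd2, Pck1, Gpam, Agpat2, Lpin1, Dgat1 and Dgat2. The genes were picked by name from the 41249 gene identifiers in the count tables, and all 10 were found and passed the filter on low values, a mean above 1 CPM (reads scaled to library size). Their levels in Axl KO against WT mice were part of what selected them, so the differences between genotypes are given below as a description. Counts of members called in the tests over all genes are printed for orientation, and nothing is read from them. Bulk RNA of iBAT was sequenced from 5 male Axl KO and 5 male WT mice, with 1 library per mouse and replicate numbers 1 to 5 in each genotype. Axl encodes a receptor tyrosine kinase, and the Axl KO was constitutive and in the whole body, carried by a knockout-first allele whose inserted cassette traps splicing, on a C57BL/6 background. The WT controls were littermates and carried no such allele. All mice of both genotypes received an ad libitum high-fat diet (HFD) from an age of 6 to 8 weeks for 24 weeks, so no group on a control diet enters the comparison. The knockout was not restricted to adipocytes, and the tissue was the whole depot.

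Glycerol 3-phosphate is the backbone on which triglycerides are built. It is made by reduction of dihydroxyacetone phosphate, which comes from glycolysis or, through glyceroneogenesis, from pyruvate, or by phosphorylation of glycerol, which most white adipocytes can do only poorly and brown adipocytes do well. Fatty acyl groups are then added in steps at the endoplasmic reticulum and mitochondria, and a phosphate is removed in between, to give diacylglycerol and finally triglyceride, the fuel store from which thermogenesis in brown fat draws fatty acids.

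Promoter sequence is shown for the members with the largest differences between genotypes (Gk, Gpam and Agpat2). It is also shown for the pair whose levels ran most strongly opposite to each other from mouse to mouse (Aqp7 and Lpin1). RefSeq windows on GRCm38.p6 were matched by symbol for 7 of the 10 members, Gpam, Aqp7 and Gpd2 with more than 1 start site, and each stretch below is the 250 bases before an annotated start site, read 5′ to 3′ on the strand of the gene, which is the minus strand for all of those printed. Gpd1, Dgat1 and Dgat2 had no window. Capitals mark a match to a searched motif on either strand.
Gk (chrX:85776820-85777069): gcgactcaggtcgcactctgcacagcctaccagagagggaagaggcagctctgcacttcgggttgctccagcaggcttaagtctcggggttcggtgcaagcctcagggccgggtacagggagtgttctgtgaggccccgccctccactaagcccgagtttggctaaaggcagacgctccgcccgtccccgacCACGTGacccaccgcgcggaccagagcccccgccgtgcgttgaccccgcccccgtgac
Gpam, upstream start (chr19:55127239-55127488): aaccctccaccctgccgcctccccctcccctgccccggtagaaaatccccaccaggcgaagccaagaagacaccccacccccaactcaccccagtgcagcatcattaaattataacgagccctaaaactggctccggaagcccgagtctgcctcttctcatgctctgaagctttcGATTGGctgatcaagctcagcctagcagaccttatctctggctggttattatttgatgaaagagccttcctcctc
Gpam, downstream start (chr19:55099478-55099727): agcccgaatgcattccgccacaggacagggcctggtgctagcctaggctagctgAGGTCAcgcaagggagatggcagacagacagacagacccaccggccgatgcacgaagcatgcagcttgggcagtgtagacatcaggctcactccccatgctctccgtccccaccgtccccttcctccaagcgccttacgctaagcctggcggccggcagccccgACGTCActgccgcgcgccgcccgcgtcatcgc
Agpat2 (chr2:26604418-26604667): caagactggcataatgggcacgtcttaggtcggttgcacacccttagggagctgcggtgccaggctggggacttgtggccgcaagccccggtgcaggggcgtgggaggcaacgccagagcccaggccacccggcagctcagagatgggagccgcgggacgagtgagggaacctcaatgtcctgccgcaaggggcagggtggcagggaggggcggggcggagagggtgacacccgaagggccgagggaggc
Aqp7 (chr4:41048137-41048386): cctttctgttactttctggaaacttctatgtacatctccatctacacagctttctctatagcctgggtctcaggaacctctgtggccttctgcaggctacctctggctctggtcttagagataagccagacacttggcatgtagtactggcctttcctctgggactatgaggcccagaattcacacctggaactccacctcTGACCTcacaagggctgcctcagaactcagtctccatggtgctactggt
Lpin1 (chr12:16610967-16611216): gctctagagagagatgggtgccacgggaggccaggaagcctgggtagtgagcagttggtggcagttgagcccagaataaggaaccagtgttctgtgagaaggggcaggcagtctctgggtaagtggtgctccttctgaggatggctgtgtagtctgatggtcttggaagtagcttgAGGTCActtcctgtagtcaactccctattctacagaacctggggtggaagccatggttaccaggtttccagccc

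The E-box read by basic helix-loop-helix factors was searched as CACGTG. The cAMP response element was searched as its core TGACGT and in full as TGACGTCA. The core site of nuclear receptors was searched as AGGTCA, and also as its direct repeat DR1. The box of the factor NF-Y was searched as CCAATC and the TATA box as TATAAA. The AGGTCA core is contained in the direct repeat, and TGACGT in the full cAMP element. The Gk window held CACGTG, which begins 58 bases before the start and is found in 6.02% of the 32851 RefSeq windows. The upstream Gpam window held CCAATC read on the opposite strand, beginning 75 bases before the start (14.6% of windows), and the downstream one held AGGTCA and TGACGT (14.0 and 6.47% of windows). The Aqp7 and Lpin1 windows each held AGGTCA, on the opposite and the same strand. Pck1, whose window is not printed, held TGACGT on the opposite strand, beginning 91 bases before the start. The Agpat2 window held none of the searched letters, which says nothing about factors that bind there. No member window held the direct repeat, the full cAMP element or a TATA box in these letters, which 0.0335, 1.55 and 12.4% of all windows held.

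The libraries held 5431014 to 9580215 counts, and Axl itself was low in every Axl KO mouse, at 0.437 to 2.01 CPM against 38.2 to 52.3 CPM in WT mice. Ucp1, the uncoupling protein that defines brown adipocytes, was at 4854 to 7632 CPM in Axl KO and 2990 to 5040 CPM in WT mice, and all 12 brown adipocyte markers were detected. Axl KO replicates 1 and 2 stood apart from the other mice on the first principal component (41.8% of the variance) and had the lowest sums of 14 skeletal muscle markers, 99.99 and 92.4 CPM, against 723 to 4324 CPM in the other 8 mice. The members' fold changes and counts, the count of pathway genes called and the pairs of members were therefore also computed without these mice, but the marker sums, family shares and single pathway genes were not. Across all 13739 genes tested with edgeR's quasi-likelihood test, 1 gene, Axl, passed a Benjamini-Hochberg adjusted p of 0.05.

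The differences between genotypes are given gene by gene, and whether they were unequal between genes was not tested. Gk, on the X chromosome (chrX:85701937-85776819, minus strand, GRCm38), encodes glycerol kinase, which traps glycerol in the cell as glycerol 3-phosphate. Gk was at 465, 458, 290, 410 and 500 CPM in Axl KO replicates 1 to 5 and at 181, 273, 254, 336 and 221 CPM in WT replicates 1 to 5. Of the Axl KO mice, 4 lay above the highest WT mouse, and replicate 3 lay within the WT range. The means were 424 ± 81.8 CPM in Axl KO and 253 ± 57.8 CPM in WT mice (SD, n = 5), a log2 fold change of 0.75 (SE 0.17), which was the largest of the 10 members. Leaving out 1 mouse at a time moved this value between 0.65 and 0.87, and without Axl KO replicates 1 and 2 it was 0.66.

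Aqp7 encodes the aquaglyceroporin through which glycerol crosses the adipocyte membrane. Aqp7 was at 141, 169, 138, 166 and 132 CPM in Axl KO and at 126, 146, 176, 172 and 171 CPM in WT mice. The groups overlapped over nearly their whole range, with means of 149 ± 17.2 and 158 ± 21.6 CPM and a log2 fold change of -0.083 (SE 0.10). The channel and the kinase thus differed in the direction of their mean values between genotypes, but whether the Gk and Aqp7 differences were unequal was not tested.

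Gpd1 encodes the cytosolic glycerol 3-phosphate dehydrogenase that reduces dihydroxyacetone phosphate, and Gpd2 its mitochondrial partner, which runs the reaction the other way and passes electrons to the respiratory chain. Gpd1 was at 9933, 8099, 7267, 9131 and 10171 CPM in Axl KO and at 9387, 9541, 6991, 8912 and 7848 CPM in WT mice, with a log2 fold change of 0.064 (SE 0.11) whose sign turned without WT replicate 3 (-0.00085). Gpd2 was at 1815, 1838, 1579, 2014 and 2039 CPM in Axl KO and at 2196, 2084, 1697, 2098 and 1835 CPM in WT mice, with a log2 fold change of -0.094 (SE 0.090). For both dehydrogenases the lowest mouse of each genotype was replicate 3, and the groups overlapped.

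Pck1 encodes the cytosolic phosphoenolpyruvate carboxykinase of glyceroneogenesis. Pck1 was at 3430, 5307, 3751, 4938 and 3828 CPM in Axl KO and at 2733, 4156, 5528, 4602 and 3942 CPM in WT mice. Both the highest and the lowest of the 10 mice were WT, and the log2 fold change was 0.020 (SE 0.17). Its sign changed under 6 of 17 alternatives, among them leaving out Axl KO replicate 2 or 4 or WT replicate 1 or 5, over a range of -0.10 to 0.14.

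The first acylations were both higher on average in Axl KO mice. Gpam encodes the mitochondrial glycerol 3-phosphate acyltransferase, which adds the first acyl chain. It was at 710, 646, 494, 667 and 850 CPM in Axl KO and at 472, 556, 540, 621 and 571 CPM in WT mice. As for Gk, 4 Axl KO mice lay above the highest WT mouse and replicate 3 did not, and the log2 fold change was 0.29 (SE 0.12). Agpat2 encodes the acyltransferase that adds the second chain and whose loss causes lipodystrophy. It was at 1623, 1416, 1221, 1287 and 1583 CPM in Axl KO and at 1353, 1341, 871, 1158 and 1100 CPM in WT mice. Only 3 Axl KO mice lay above the highest WT mouse, and the log2 fold change was 0.29 (SE 0.12). Left-out mice moved the fold changes of Gpam between 0.19 and 0.38 and of Agpat2 between 0.20 and 0.35. Without Axl KO replicates 1 and 2 they were 0.28 and 0.23. Agpat2 shares 64 bases of exon with Egfl7 on the opposite strand, but with 93263 reads over the 10 mice it far exceeded Egfl7 with 5623.

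Lpin1 encodes the phosphatidate phosphatase that makes diacylglycerol, and was at 1000, 909, 1008, 905 and 1157 CPM in Axl KO and at 1273, 1172, 827, 1006 and 984 CPM in WT mice. Its 2 highest mice and its lowest mouse were WT, and the log2 fold change was -0.080 (SE 0.11). Dgat1 and Dgat2 encode unrelated acyltransferases that add the last chain. Dgat1 was at 195, 226, 186, 223 and 220 CPM in Axl KO and at 198, 208, 194, 199 and 176 CPM in WT mice (log2 fold change 0.11, SE 0.070). Dgat2 was at 2632, 2739, 2604, 2671 and 2826 CPM in Axl KO and at 2556, 3246, 2761, 2639 and 2942 CPM in WT mice (log2 fold change -0.070, SE 0.071). Both lay within narrow ranges, and the groups overlapped.

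**Figure D1:**
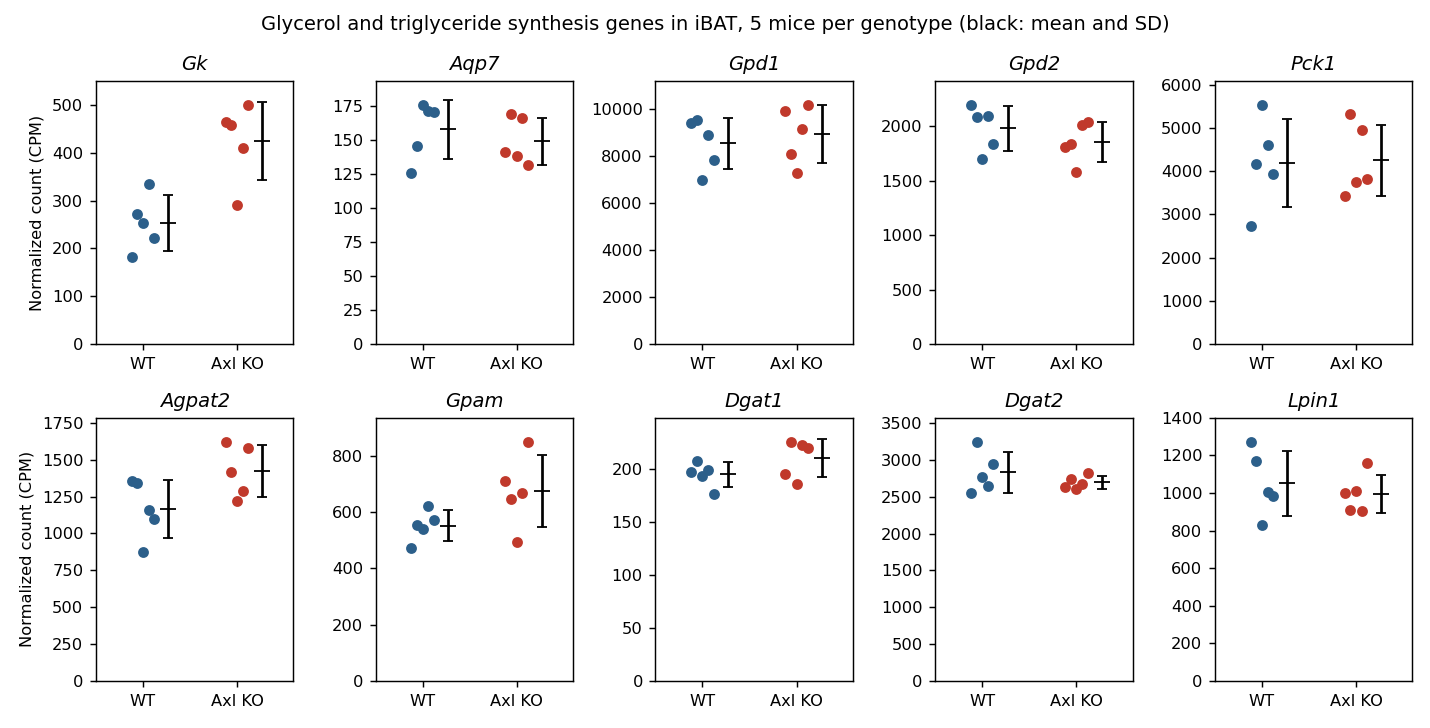
Levels of the 10 genes in each mouse, in CPM (y axes, each starting at 0), for Axl KO and WT mice, with each point 1 mouse and the bar the mean ± SD of 5 mice. Gk has 4 Axl KO mice above its highest WT mouse, at 336 CPM, whereas Aqp7, Pck1 and Dgat2 overlap broadly.

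Over the list, 6 of the 10 genes had a positive log2 fold change, against 49.8% of all genes tested, and the median was 0.042, against -0.00059 over all genes. With edgeR's adjusted p, 0 of the 10 were called, where 0.00728% of all genes tested were. With DESeq2 1 was called, Gk, where 0.0655% of all genes were. At an unadjusted p under 0.05 in edgeR, 3 members passed (Gk, Gpam and Agpat2), all higher in Axl KO, where 4.54% of genes passed in that direction and 3.86% in the other. In 0 of 10 members the genotypes did not overlap, where 1.35% of genes were without overlap. Without Axl KO replicates 1 and 2, edgeR again called 0 members, 5 had a positive log2 fold change, and the median was 0.024. Because this contrast was used to choose the genes, these shares are printed for orientation and nothing is read from them. RNA of a whole depot cannot tell fewer cells of a type apart from less RNA per cell.

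**Figure D2:**
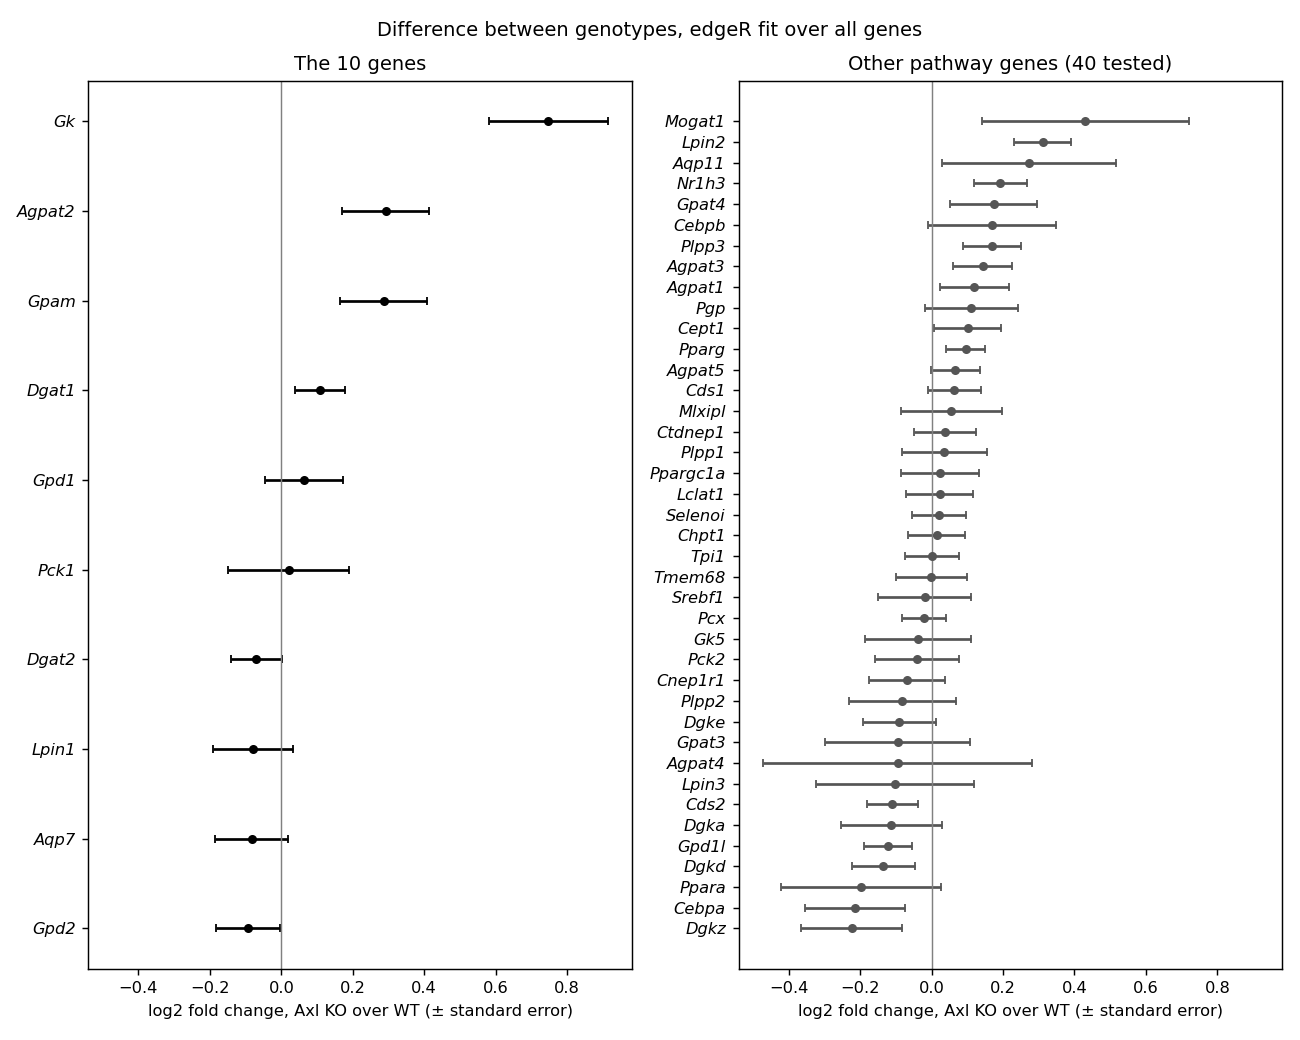
Log2 fold change of Axl KO against WT (x axes) for the 10 genes (left) and the 40 tested pathway genes (right), as points with bars of 1 standard error either way, derived from edgeR's F statistic. On the left Gk lies highest at 0.75, Gpam and Agpat2 follow at 0.29, and the other 7 lie between -0.094 and 0.11, and on the right the points spread on both sides of 0.

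Of the markers of 7 cell types, 0 were called by edgeR's adjusted p in any list, where 0.00728% of all genes tested were. At an unadjusted p under 0.05 in edgeR, 8.4% of all genes tested passed. Of the markers, 6 of 12 brown adipocyte, 2 of 9 fibroblast, 1 of 11 macrophage and 1 of 10 endothelial ones did. For the counts of markers higher in Axl KO below, the share over all genes tested was 49.8%. The sum of the 12 brown adipocyte markers was 8714 to 12103 CPM in Axl KO and 6868 to 9014 CPM in WT mice, with 11 of 12 higher on average in Axl KO. The 9 fibroblast markers summed to 524 to 887 CPM in Axl KO and 750 to 1003 CPM in WT mice, with 0 of 9 higher. The 14 skeletal muscle markers also had 0 of 14 higher, with sums of 92.4 to 3693 CPM and 924 to 4324 CPM. White adipocyte markers, of which 8 of 9 were matched and Hoxc9 was at 0, summed to 212 to 647 CPM and 284 to 591 CPM, with 1 of the 4 that were tested higher. Macrophage markers (4 of 11 tested higher) summed to 141 to 256 CPM in Axl KO and 154 to 243 CPM in WT mice, endothelial markers (3 of 10) to 642 to 782 CPM and 638 to 916 CPM, and erythroid markers (3 of 5) to 384 to 714 CPM and 474 to 666 CPM. The part of these cell types in the levels of Gk, Gpam and Agpat2 was not tested. With the muscle markers as a covariate, the Gk log2 fold change was 0.69.

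The other genes of the pathway were taken from a list of 46 channels, enzymes of glycerol 3-phosphate supply, acyltransferases, phosphatases, branch-point enzymes and transcriptional regulators, of which 40 passed the filter. By edgeR's adjusted p 0 of the 40 were called, by DESeq2 also 0, and at an unadjusted p under 0.05 there were 2, both higher in Axl KO, against the same background of 8.4% in either direction. Of the 40, 22 had a positive log2 fold change, and their median was 0.018. Lpin2, a paralog of Lpin1 with the same activity, was at 33.2, 37.1, 31.6, 29.98 and 37.8 CPM in Axl KO and at 26.5, 29.4, 25.0, 28.4 and 27.3 CPM in WT mice. It was the only pathway gene without overlap between genotypes, where 1.35% of all genes had none, but its log2 fold change of 0.31 (SE 0.079) had an edgeR adjusted p of 0.571. Nr1h3, which encodes the sterol-sensing receptor LXR alpha, was at 76.3 to 96.4 CPM in Axl KO and at 71.0 to 80.2 CPM in WT mice, with a log2 fold change of 0.19 (SE 0.074) and an edgeR adjusted p of 0.571. The values of the other regulators lay closer to 0 or had wider errors, as for Pparg, the master regulator of adipocytes (0.095, SE 0.055), Srebf1, which drives lipid synthesis (-0.020, SE 0.13), and Cebpa (-0.21, SE 0.14).

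Expression was uneven along the pathway. Levels are compared between genes in CPM per kb of merged exon length, averaged over the 10 mice. Gpd1 was highest at 2948 ± 376 (SD, n = 10), above Pck1 (1231 ± 254), Dgat2 (896 ± 66.6), Agpat2 (608 ± 105) and Gpd2 (293 ± 30.1). Lpin1 (106 ± 14.2), Gpam (92.0 ± 16.9), Dgat1 (66.3 ± 5.34), Aqp7 (54.3 ± 6.71) and Gk (43.7 ± 14.5) followed. Even Gk was above 93.2% of the genes tested. Neighbours in this order were compared within mice by exact two-sided sign-flip permutation tests, adjusted over 9 pairs, and 7 of 9 differed (adjusted p 0.00352 to 0.00753). Lpin1 and Gpam did not, with Lpin1 above Gpam in 6 of 10 mice, 5 of them WT and 1 Axl KO (exact permutation test, adjusted p = 0.0723), nor did Aqp7 and Gk, with Aqp7 above Gk in 8 of 10 (exact permutation test, adjusted p = 0.0593). With the longest transcript as the length, Dgat1 came above Gpam and Gk above Aqp7, so the order of these 4 genes depends on the gene model. So does the closeness of Lpin1 and Gpam, which on that length were at 184 and 99.3 CPM per kb and no longer neighbours. Gk was below Aqp7 on average in WT mice (32.7 ± 7.46 against 55.9 ± 7.63 CPM per kb, SD, n = 5), and close to it in Axl KO mice (54.8 ± 10.6 against 52.8 ± 6.07).

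**Figure D3:**
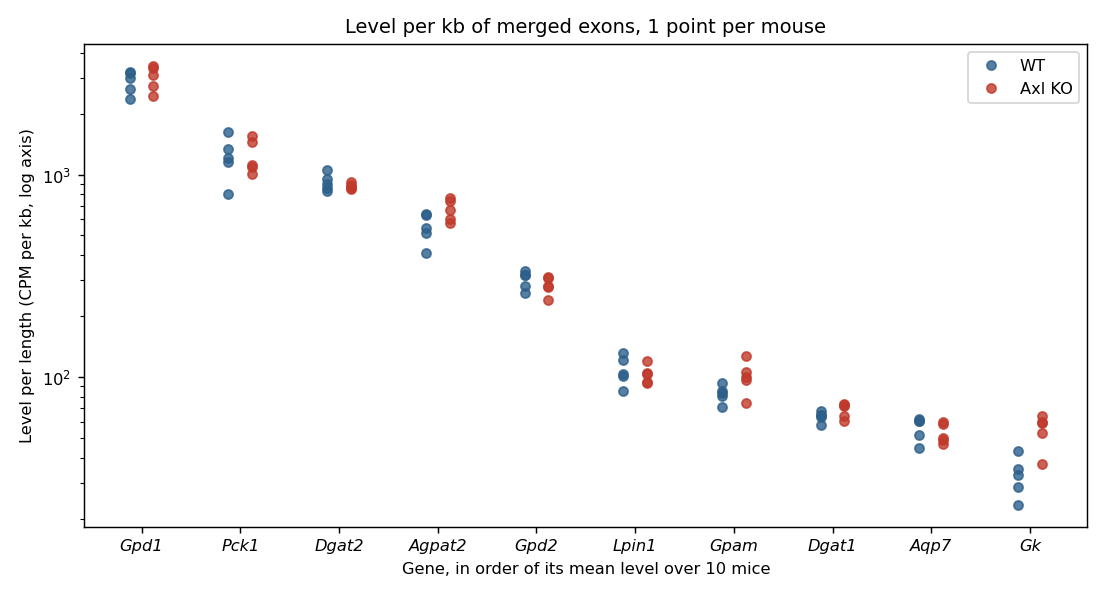
Levels of the 10 genes in CPM per kb of merged exon length (log axis), with each point 1 mouse and the genes in the order of their mean. Gpd1 is at 2948 and Gk at 43.7 CPM per kb, and the points of Lpin1 and Gpam and of Aqp7 and Gk overlap.

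Most families were dominated by 1 gene at the level of RNA. The families were set by hand, and the Plpp phosphatases and Lclat1 were left out of them. Among glycerol kinases, Gk held 97.0% of the CPM per kb, with Gk5 the rest and Gk2 and Gykl1 without a read in any mouse. The share of Gk was 96.2 ± 0.857% in WT and 97.7 ± 0.437% in Axl KO mice (SD, n = 5). Aqp7 held 99.4% of its family, Gpd1 99.6% beside Gpd1l, and Pck1 99.9% beside Pck2, the mitochondrial form. Lpin1 held 96.3%, Lpin2 2.31% and Lpin3 1.38%, so the higher Lpin2 of Axl KO mice lay on a small share of the family. Agpat2 held 83.3%, with Agpat3 at 11.1% and Agpat1 at 5.19%. The glycerol 3-phosphate acyltransferases were the most divided family, with Gpam at 60.3%, Gpat4, an enzyme of the endoplasmic reticulum, at 34.1% and Gpat3 at 5.61%. Dgat2 held 93.1% and Dgat1 6.91% of the CPM per kb of the enzymes of the last step.

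**Figure D4:**
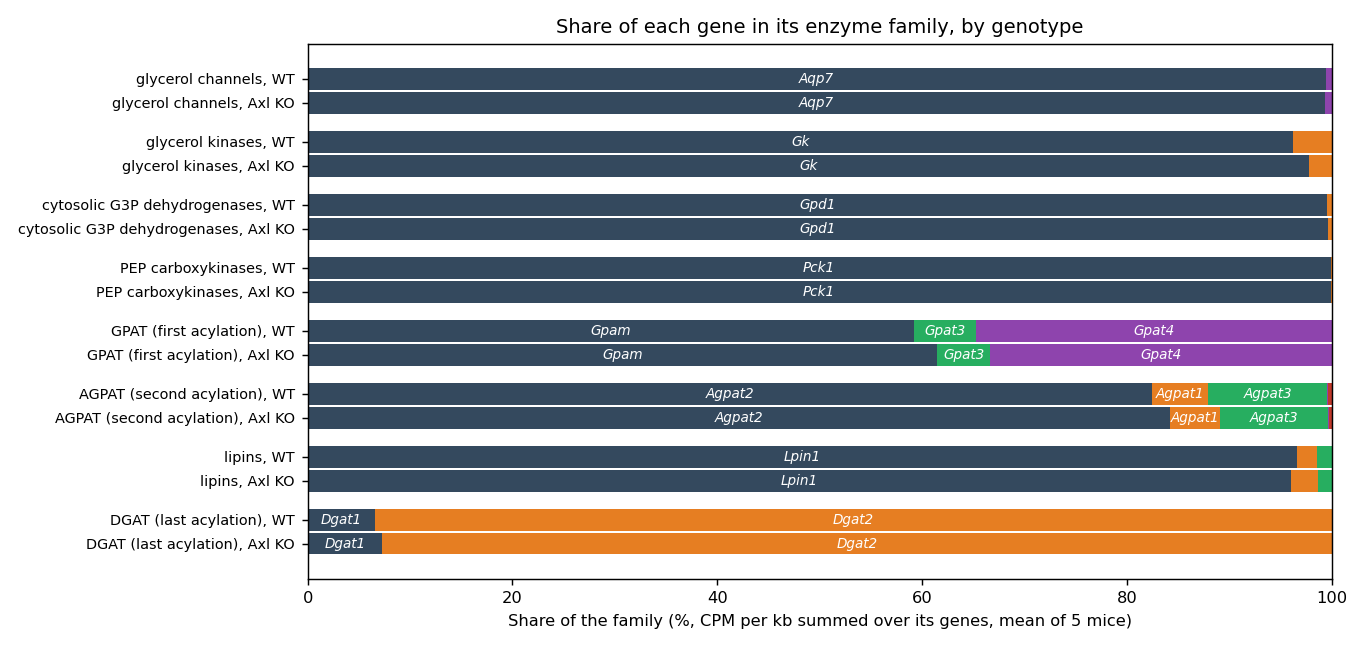
Share of each gene in the CPM per kb of its enzyme family, in percent (axis from 0), as means of 5 mice by genotype, with slices under a few percent not named. Gk, Aqp7, Gpd1, Pck1, Lpin1 and Dgat2 each make up more than 90% of their family, whereas Gpam makes up 59.2% (WT) and 61.5% (Axl KO) of the glycerol 3-phosphate acyltransferases.

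The members differed in how much they varied between mice of the same genotype, a measure that the choice of genes did not use. The within-genotype SD of log2 CPM was largest for Pck1 (0.33) and Gk (0.32), and smallest for Dgat2 (0.10) and Dgat1 (0.11), with a median of 0.18 over all genes tested. Of the 10 members, 7 were above that median. The Gk difference of 0.75 was more than 2 of its SDs, Agpat2 and Gpam differed by more than 1, and the other 7 by less than 1. Unlike the SDs, these differences come from the contrast used to choose the genes. They are given for scale, without the share over all genes, and nothing is read from them.

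Pairs of members were then compared through each mouse's deviation from the mean of its genotype, with permutations within genotype over 10 mice and Benjamini-Hochberg adjustment over 45 pairs. Of these, 4 had an adjusted permutation p under 0.05 by Pearson's r and 1 by Spearman's rho. Aqp7 and Lpin1 ran opposite to each other (r = -0.90, adjusted permutation p = 0.0171; rho = -0.95, adjusted p = 0.0243), and r was -0.80 without the 2 mice farthest from the median of Aqp7. Within each genotype r was -0.92 (Axl KO) and -0.91 (WT), so both groups of 5 showed the inverse relation. WT replicate 1 had the lowest Aqp7 and the highest Lpin1 of all 10 mice, and WT replicate 3 the highest Aqp7 and the lowest Lpin1.

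Gk and Gpam, the kinase and the first acyltransferase, were high and low in the same mice (r = 0.86, adjusted permutation p = 0.0306; rho = 0.82, adjusted p = 0.111), with r = 0.85 without the 2 mice farthest on Gk. Axl KO replicate 3 had the lowest Gk and Gpam of its genotype, and replicate 5 the highest. Over the same 10 mice, the within-genotype r with the summed brown adipocyte markers was 0.62 for Gk and 0.77 for Gpam. With the white adipocyte markers it was -0.82 and -0.81, and with the fibroblast markers -0.60 and -0.73. With the macrophage markers it was -0.64 and -0.38, and with the endothelial markers -0.53 and -0.29. With the skeletal muscle and erythroid markers it lay between -0.19 and -0.018 for both genes. These are descriptions, and the part of the cell types in the relation of Gk and Gpam was not tested. Gpd1 ran with Agpat2 (r = 0.88, adjusted permutation p = 0.0306; rho = 0.83, adjusted p = 0.0940; r = 0.75 without 2 mice) and with Gpd2 (r = 0.88, adjusted permutation p = 0.0468; rho = 0.70, adjusted p = 0.286; r = 0.64 without 2 mice). The r with the brown adipocyte markers was 0.71 for Gpd1, 0.69 for Gpd2 and 0.55 for Agpat2. With the fibroblast markers it was -0.58, -0.72 and -0.28, and with the white adipocyte markers -0.25, -0.30 and 0.088. With the macrophage markers it was -0.35, -0.48 and -0.065, and with the other 3 lists it lay between -0.28 and 0.047. The part of the cell types in these 2 relations was not tested either. Aqp7 and Pck1 (r = 0.88, adjusted permutation p = 0.0596) and Agpat2 and Lpin1 (r = 0.83, adjusted permutation p = 0.0672) missed the threshold. So did Pck1 and Lpin1, which also ran opposite to each other (r = -0.81, adjusted permutation p = 0.0912). Of all 45 pairs, 36 had a positive r. When 1 mouse was left out, 0 pairs passed in 7 of the 10 fits and at most 5 in the others. The r of Aqp7 and Lpin1 stayed between -0.95 and -0.85 over those 10 fits, and that of Gk and Gpam between 0.74 and 0.90. Without Axl KO replicates 1 and 2, 0 pairs passed, but so few arrangements remain there that a single pair alone cannot pass. In that setting r was -0.91 for Aqp7 and Lpin1 and 0.88 for Gk and Gpam. The labels give no time of dissection, cage or feeding state. A relation of these with the deviations, or with the differences between genotypes, was therefore not tested.

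**Figure D5:**
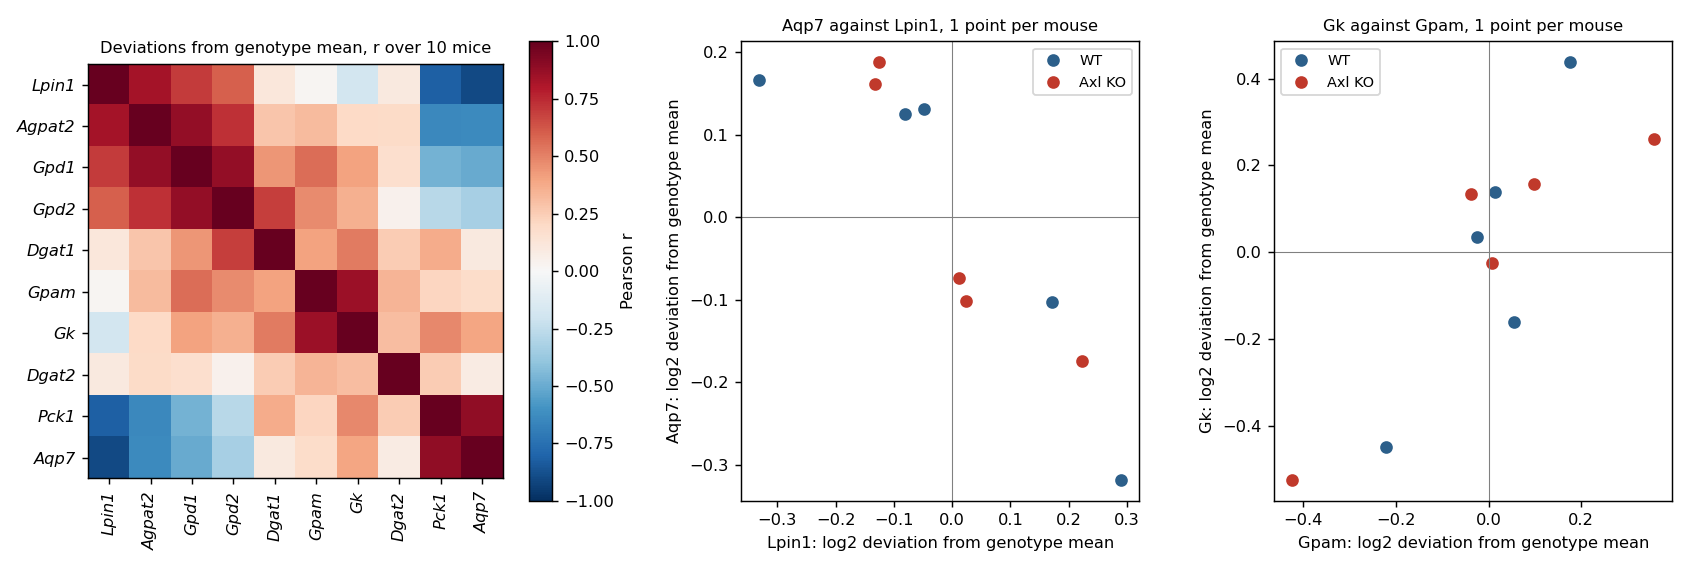
Left, Pearson's r (colour) of log2 CPM deviations from the genotype mean for all pairs of the 10 genes over 10 mice, and right, the deviations of Aqp7 against Lpin1 and of Gk against Gpam, with each point 1 mouse. Aqp7 and Lpin1 have the lowest r, at -0.90, and Gk with Gpam (0.86) and Gpd1 with Agpat2 and Gpd2 (0.88 each) are among the highest.

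For each member, the gene outside the list with the most similar deviations over the 10 mice was looked up. This is a description, taken from the highest r over all tested genes outside the list. Gk was most like Rexo4 (r = 0.96), Gpam like Elmod3 (0.97), Agpat2 like Gbe1, the glycogen branching enzyme (0.97), and Gpd1 like Paqr9 (0.98). Gpd2 was most like Ptpmt1, a mitochondrial phosphatase (0.97), Pck1 like Zfp740 (0.96), Dgat1 like 1810030O07Rik (0.94), Dgat2 like Klc4 (0.93) and Lpin1 like Gm20388 (0.96). Aqp7 was most like Clock, which encodes a transcription factor of the circadian clock (0.95).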

How the data were processed

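RNA of whole iBAT was sequenced from 5 Axl KO and 5 WT mice. The authors deposited 1 table per mouse with raw read counts per Ensembl gene, not normalized. The submitters' processing notes name Trimmomatic 0.36, STAR 2.6.1c, bcl2fastq and GRCm38.p5, whereas the paper's methods name Trim Galore and hisat2. The labels name polyadenylated RNA and the paper rRNA depletion. The paper also gives another age and duration of HFD than the labels, which were used here. The counting tool and strand setting are not given in the sources used here, so overlapping genes are uncertain. Gene models were GENCODE vM21.

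Counts were compared in R 4.3.3 with edgeR 4.0.16 (TMM, quasi-likelihood, no covariate) over genes with a mean above 1 CPM, with Benjamini-Hochberg adjustment, and DESeq2 1.42.0 was an alternative. Standard errors (SE) of log2 fold changes were derived as the absolute log2 fold change over the square root of edgeR's F statistic. Deviations used log2 CPM with a prior count of 2, and 100000 permutations. The fit was checked on simulated data. P-values set an effect against the variation between these mice. The members and lists were chosen with earlier results of these data known. Named genes were Axl, Ucp1, the members, pathway genes with an unadjusted p under 0.05, paralogs, markers and each member's most similar gene; other names were chosen after their values were seen.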

Additional observations from a re-analysis of the deposited data

Results flagged for a closer look

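Among 28 groups of 5 mice checked for a single distant mouse, 2 stood out, where chance gives about 5%. Axl was at 0.437 CPM in Axl KO replicate 4, and the nearest Axl KO mouse was at 1.69 CPM, a gap of 0.801 of the group's range. Ucp1 was at 7632 CPM in Axl KO replicate 5, and the nearest Axl KO mouse was at 5571 CPM, a gap of 0.742 of the range. No group of values of the 10 members was set apart in this way.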

How the results depend on the processing

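Each of the 10 members' log2 fold changes was recomputed under 17 alternatives, and none of the 170 values moved by more than 1 within-genotype SD, although Pck1 and Gpd1 changed sign. DESeq2 called 9 genes in place of 1, and 1 member in place of 0. Leaving out 1 mouse gave 0 to 2 members without overlap between genotypes: 2 without Axl KO replicate 3 (Gk and Gpam) and 1 without WT replicate 4 (Gk). In WT or Axl KO mice alone, 0 neighbours in the level order differed, but 5 mice cannot give a sign-flip p below 0.0625. By Spearman's rho 1 pair of members passed, and with 1 mouse left out 0 to 5 did. There were 0 without Axl KO replicate 3 or 5 or any 1 WT replicate, and 2 without Axl KO replicate 1. Without Axl KO replicates 1 and 2, an alternative chosen after seeing the data, 0 passed, but a single pair alone cannot pass there. With the replicate number as a block the calls were the same, 1 gene and 0 members, with a median log2 fold change of 0.050. Deviations of same-numbered mice had r from -0.36 to 0.37. Only Axl KO replicate 2 was closest to the WT mouse of its own number. The labels do not say what the numbers mean, so these values cannot decide whether they pair the mice. Depth limits little here, since no member had fewer than 699 reads in a mouse.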

Other observations

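Clock, the gene most like Aqp7 over the 10 mice, ran opposite to Lpin1 (r = -0.89) and with Pck1 (r = 0.83). Arntl, which encodes the partner of CLOCK, was looked at with other clock genes after this was seen. Arntl had r = 0.32 with Aqp7 and -0.25 with Lpin1, but 0.72 with Gk. Among the others that passed the filter, r with Aqp7 ran from -0.45 (Dbp) to 0.43 (Per1). With Lpin1 it ran from -0.34 (Per1) to 0.61 (Dbp). Gk had r = 0.74 with Cry1 and -0.78 with Per3, and Gpam 0.84 with Per2 and -0.76 with Per3. These were picked as larger values, and Nr1d1 had -0.0071 with Gk and 0.21 with Gpam. These r values are descriptions over the same 10 mice, with no test. Between genotypes, the log2 fold change was 0.54 for Arntl, 0.20 for Clock, -0.34 for Per3 and -0.72 for Dbp (edgeR adjusted p 0.571 each). For the other clock genes that passed the filter it ran from -0.21 (Ciart) to 0.29 (Per1). Whether the time of dissection differed between the genotypes is not given, and its part in the differences of the members was not tested.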
